A study of Homo sapiens with 8 samples.

Results

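Neuroblastoma (NB) cells can take on a mesenchymal state, and 10 genes that regulate or mark it were followed here through MeRIP-seq of SK-N-BE(2), an established human NB cell line. The set was given by name: the transcription factors PRRX1, TWIST1, SNAI2, FOSL1 and FOSL2, the co-activators YAP1 and WWTR1, and the markers VIM, FN1 and CD44. All 10 were found among the 56303 genes of the count table. Cells had received either the control shRNA (sh-NC) or one directed at METTL14 (shMETTL14). The study's methods describe knockdown with a lentiviral vector and puromycin, without saying more of the control. There were 2 cultures per arm, and each gave 1 m6A immunoprecipitation (IP) library and 1 input library. The sources do not say whether the shMETTL14 cultures carry the same shRNA sequence or were grown independently, so the p-values below measure the spread between these cultures, which may be technical.

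As background, NB tumours and cell lines hold an adrenergic state, which resembles sympathetic neuroblasts and runs on factors such as HAND2 and GATA3, and a mesenchymal state, which resembles neural crest cells and runs on PRRX1, AP-1 dimers and the YAP and TAZ co-activators bound to TEAD factors. Mesenchymal NB cells are known for motility, matrix production and tolerance of chemotherapy. METTL14 is the partner of METTL3 in the complex that writes N6-methyladenosine (m6A) on messenger RNA. In MeRIP-seq, polyadenylated RNA is fragmented, part of it is set aside as input, and the remainder is enriched by an anti-m6A antibody, so the ratio of IP to input is a relative measure of m6A on a transcript. Because libraries are scaled to each other, a fall in m6A shared by every transcript would not be seen.

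The libraries held from 32027379 to 47205265 counts. METTL14 itself stood at an input level of 51.2 ± 0.523 CPM (SD, n = 2; read counts scaled to library size) in sh-NC and 14.8 ± 0.690 in shMETTL14, a log2 change of -1.79 (SE 0.0663, edgeR adjusted p = 1.28e-15). The labelled cell type was checked against marker genes. The adrenergic factors HAND2 and GATA3 stood at 796 and 791 TPM, a level scaled to gene length and library size, and at 113 and 107 TPM in the sh-NC inputs, and CHGA, a chromaffin granule protein, at 280 and 285 TPM. Of 6 markers of other cell types, PTPRC of blood cells and PECAM1 and CDH5 of endothelium did not exceed 0.268 TPM in any input, with PECAM1 at no count in sh-NC input 2, whereas EPCAM of epithelium and S100B of Schwann cells lay between 4.59 and 6.32 TPM. The summed level of the list was 12.3 and 12.5 TPM in sh-NC and 11.3 and 11.1 TPM in shMETTL14.

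The level of the 10 genes per unit length covered a wide range. VIM, the intermediate filament protein of mesenchymal cells, was the highest, at 1085 ± 31.2 TPM in sh-NC. By its mean over the 4 inputs it was above 99.6% of all genes tested. TWIST1, a basic helix-loop-helix factor of the neural crest, followed at 149.2 ± 3.06 TPM, and CD44, the hyaluronan receptor, at 42.8 ± 0.129 TPM. The zinc finger repressor SNAI2, with 34.2 ± 0.0523 TPM, and the AP-1 subunit FOSL2, with 33.6 ± 0.957 TPM, overlapped in their spread and were not ordered.

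Lower in the order came FN1, which encodes the matrix protein fibronectin, at 26.3 ± 0.284 TPM. The AP-1 subunit FOSL1 (8.80 ± 1.15 TPM) and WWTR1, which encodes TAZ (7.91 ± 0.716 TPM), also overlapped. YAP1, the paralog of TAZ, was at 2.07 ± 0.0313 TPM, and by its mean over the 4 inputs above 22.8% of the genes tested. PRRX1, the homeobox factor held to be a core regulator of the mesenchymal state, was the 1 gene of the set that was barely expressed, taken here as a mean under 1 TPM over the 4 inputs. It reached 0.0874 ± 0.0414 TPM in sh-NC and 0.259 ± 0.0215 TPM in shMETTL14, and by its mean over the 4 inputs was above 1.22% of the genes tested. SK-N-BE(2) cells thus held RNA of most genes of the set beside high adrenergic markers, with next to no RNA of PRRX1.

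**Figure D1:**
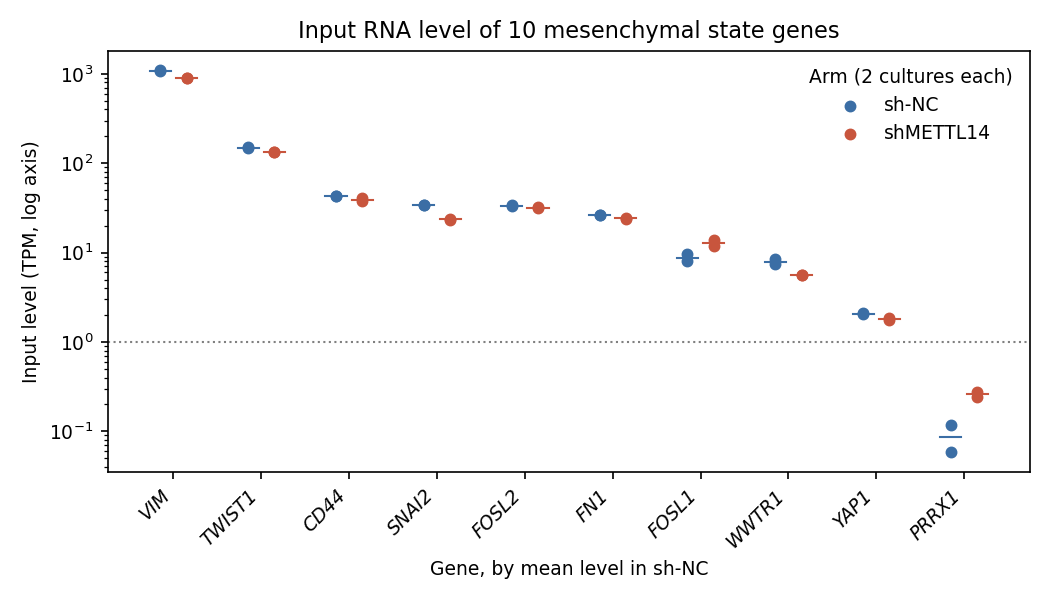
Input RNA level of each gene in TPM (log axis) in the 2 sh-NC and the 2 shMETTL14 cultures, with points for cultures and bars for arm means. VIM sits near 1085 TPM in sh-NC and PRRX1 alone lies under the dotted line at 1 TPM.

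After METTL14 knockdown, 6 of the 10 genes fell in the input (SNAI2, WWTR1, VIM, TWIST1, CD44 and FN1), 2 rose (FOSL1 and PRRX1) and 2 did not pass the test (FOSL2 and YAP1). The PRRX1 call rests on few reads and on passing the low-count filter through the shMETTL14 inputs, where PRRX1 is high. Over all 22245 genes tested with edgeR, 12.3% fell and 11.7% rose at an adjusted p under 0.05. The median log2 change of the 10 genes was -0.17, against 0.00236 over all genes. The input CPM of the arms did not overlap for any of the 10 genes, including FOSL2 and YAP1. The share of all genes without overlap was not computed, so this is no result about the set. An exact permutation test of 2 against 2 cultures cannot go below p = 0.333. In bulk RNA, fewer cells in a state and less RNA per cell cannot be told apart. The genes are described below by their roles.

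**Figure D2:**
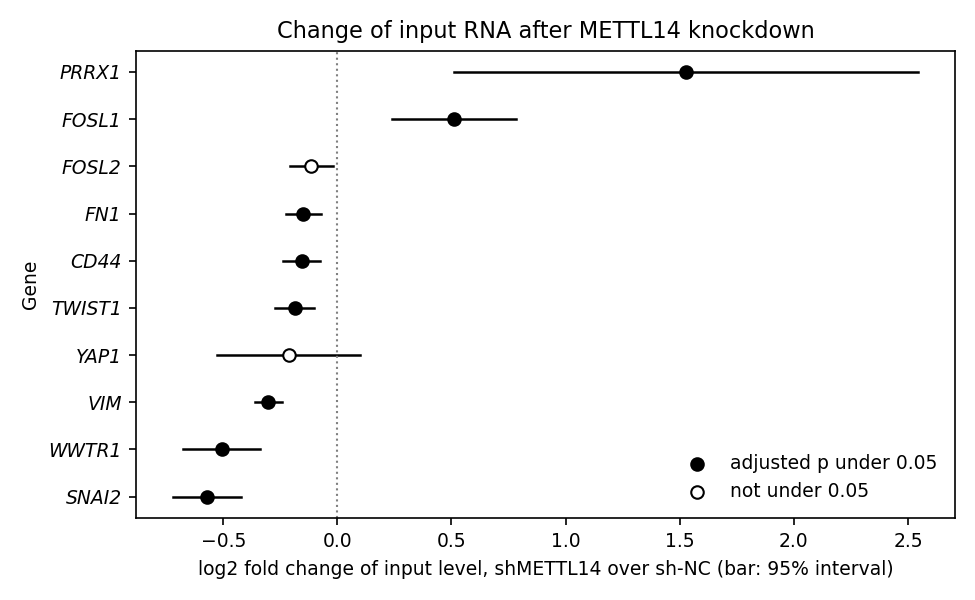
Log2 fold change of the input level, shMETTL14 over sh-NC, for each gene with its 95% interval from edgeR (2 cultures per arm), filled where the adjusted p was under 0.05. SNAI2 (-0.57) and WWTR1 (-0.51) lie farthest to the left and PRRX1 (1.53) to the right with the widest interval.

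SNAI2 had the most negative log2 change of the set, close to that of WWTR1. It lies at chr8:48917690-48921740 (GRCh38, minus strand) and encodes Slug, a repressor of epithelial genes that acts in neural crest migration. Its input level was 28.3 CPM in both sh-NC cultures, and 19.6 and 18.5 CPM in the shMETTL14 cultures. This was a fall of 32.7%, with a log2 change of -0.57 (SE 0.0717, edgeR adjusted p = 1.58e-06), far larger than the gap between cultures of an arm. TWIST1 (chr7:19020991-19117672, minus strand), a factor of mesenchymal transition often grouped with SNAI2, also fell. It was at 108.7 and 111.4 CPM in sh-NC and at 97.6 and 95.8 CPM in shMETTL14, a log2 change of -0.19 (SE 0.0417, edgeR adjusted p = 0.00159). AC003986.6, on the opposite strand, shares 6.94% of the TWIST1 exonic bases and had 1.71% to 4.69% of the TWIST1 count. The ratio of SNAI2 to TWIST1 counts was 0.261 and 0.254 in sh-NC against 0.201 and 0.194 in shMETTL14, without overlap, although an exact permutation test of 2 against 2 cannot go below p = 0.333. The TWIST1 call was lost without shMETTL14 culture 2 (adjusted p = 0.0992) and with no filter on low counts (0.0518), while SNAI2 passed in every alternative run.

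PRRX1 (chr1:170662728-170739419, plus strand) had 12 and 6 reads in the sh-NC inputs against 29 and 32 reads in the shMETTL14 inputs. Its IP reads numbered 20 and 14 for sh-NC and 11 and 34 for shMETTL14. The shMETTL14 inputs were thus the higher ones, at 0.717 and 0.801 CPM against 0.350 and 0.174 CPM. The log2 change was 1.53 (SE 0.491, 95% interval 0.51 to 2.54, edgeR adjusted p = 0.0246). This gene passed the filter on low counts through the shMETTL14 inputs, where it is high, so its call is not independent of that filter. The call was lost without a filter (adjusted p = 0.111), in the IP libraries alone (log2 change 0.61, adjusted p = 0.418), and without sh-NC culture 2 (1.11, 0.198), shMETTL14 culture 1 (1.60, 0.113) or shMETTL14 culture 2 (1.44, 0.214), and DESeq2 gave it no adjusted p.

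Of the AP-1 subunits of the set, FOSL1 rose and FOSL2 did not pass the test. FOSL1 (chr11:65892049-65900573, minus strand) encodes FRA1, a FOS-family protein that pairs with JUN proteins and marks invasive cells. It was measured at 5.48 and 6.56 CPM in the sh-NC inputs and at 7.89 and 9.26 CPM in the shMETTL14 inputs. Both shMETTL14 cultures were thus above both sh-NC cultures, with a log2 change of 0.51 (SE 0.131, edgeR adjusted p = 0.00532). FOSL2 (chr2:28392448-28417312, plus strand) encodes the related FRA2 and was at 85.7 and 88.8 CPM in sh-NC and at 81.9 and 79.4 CPM in shMETTL14. Its log2 change of -0.11 (SE 0.0448, edgeR adjusted p = 0.0694) missed the threshold. Per unit length, the ratio of FOSL1 to FOSL2 was 0.242 and 0.280 in sh-NC against 0.365 and 0.442 in shMETTL14. The FOSL1 call was lost without a filter (adjusted p = 0.125), without sh-NC culture 1 (log2 change 0.39, adjusted p = 0.101) or shMETTL14 culture 2 (0.38, 0.218), and in the IP libraries alone (0.26, 0.202), where FOSL2 passed instead (-0.12, 0.0485).

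YAP1 and WWTR1 encode the paralogs YAP and TAZ, which the Hippo kinases hold in the cytoplasm and which otherwise bind TEAD factors. WWTR1 (chr3:149517235-149736714, minus strand) was at 25.7 and 22.5 CPM in the sh-NC inputs and at 17.0 and 16.9 CPM in the shMETTL14 inputs. It fell by 29.7%, with a log2 change of -0.51 (SE 0.0806, edgeR adjusted p = 3.75e-05), and passed in every alternative run. YAP1 (chr11:102110461-102233423, plus strand) was at 4.78 and 4.65 CPM in sh-NC and at 4.18 and 3.95 CPM in shMETTL14. The shMETTL14 cultures were lower, but the log2 change of -0.21 had a 95% interval from -0.53 to 0.10 (edgeR adjusted p = 0.35), which holds both no change and a fall as large as that of WWTR1. The ratio of WWTR1 to YAP1 counts was 5.38 and 4.84 in sh-NC against 4.07 and 4.28 in shMETTL14. Part of these counts may belong to antisense RNAs: RP11-864G5.3 shares 9.97% of the YAP1 exonic bases and had 12% to 35.6% of its count, and WWTR1-AS1 shares 9.45% of those of WWTR1 and had 1.65% to 11.8% of its count.

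The RefSeq windows of 250 bases before the gene start (GRCh38.p14) were searched for the TEAD motif GGAATG, the AP-1 motif TGANTCA and the E-box CAGGTG bound by SNAI2, on both strands. Over 27305 promoters, 11.9% held the TEAD motif, 6.60% the AP-1 motif and 17.5% the E-box. A window was matched for 7 of the 10 genes, and a single match was found, a TEAD motif in YAP1 from 162 to 157 bases before the start. All 250 bases of the PRRX1 and CD44 windows lay inside counted exons of their own gene. So did 104 bases for FN1, 55 for WWTR1 and 35 for FOSL2. These windows thus do not lie wholly upstream of the genes as counted. The windows of YAP1, the co-activator of TEAD factors, and of VIM, the highest gene of the set, are given here 5′ to 3′ on the plus strand because each lies outside the exons of its gene, with the TEAD motif in capitals. They are at chr11:102110197-102110446 and chr10:17227991-17228240.
YAP1: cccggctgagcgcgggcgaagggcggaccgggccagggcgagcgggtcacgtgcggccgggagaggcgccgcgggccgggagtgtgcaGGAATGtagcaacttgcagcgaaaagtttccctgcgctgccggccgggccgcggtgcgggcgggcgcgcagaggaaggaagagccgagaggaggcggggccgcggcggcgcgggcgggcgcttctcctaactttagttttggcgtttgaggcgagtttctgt
VIM: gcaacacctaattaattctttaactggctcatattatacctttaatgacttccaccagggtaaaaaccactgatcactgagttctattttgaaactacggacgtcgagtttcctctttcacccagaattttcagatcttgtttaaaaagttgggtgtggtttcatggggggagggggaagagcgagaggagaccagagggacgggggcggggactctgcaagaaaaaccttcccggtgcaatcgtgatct
The YAP1 window is 72.0% GC with 36 CpG dinucleotides and that of VIM 46.0% GC with 8, against medians of 58.0% and 11 over all promoters. By GC content the windows of FN1 (76.4%) and WWTR1 (35.2%) were the ends of the range of the 7. These letters are a description of the windows and no site of binding, and with 1 match no motifs overlap.

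The markers VIM, FN1 and CD44 fell too, with log2 changes smaller than those of SNAI2 and WWTR1. VIM (chr10:17228259-17237593, plus strand) was at 1992 and 2065 CPM in the sh-NC inputs and at 1648 and 1642 CPM in the shMETTL14 inputs. It fell by 18.9%, a log2 change of -0.30 (SE 0.0282, edgeR adjusted p = 1.5e-08), the smallest p of the set, and passed in every alternative run. The antisense genes VIM-AS1 and RP11-124N14.3 share 24.4% of the exonic bases of VIM in all, and their own counts were 34.0% to 39.7% and 40.4% to 51.0% of that of VIM. The strand setting of the count is not given in the sources used here, so reads of VIM and of its antisense genes cannot be told apart.

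FN1 (chr2:215360440-215436172, minus strand), which shares no exonic base with another gene, was at 167.0 and 163.7 CPM in sh-NC and at 148.5 and 149.6 CPM in shMETTL14, a log2 change of -0.15 (SE 0.0375, edgeR adjusted p = 0.00431). CD44 (chr11:35138870-35232402, plus strand) was at 156.9 and 155.5 CPM in sh-NC and at 136.6 and 143.9 CPM in shMETTL14, a log2 change of -0.16 (SE 0.0394, edgeR adjusted p = 0.00452). Both differences were larger than the gap between cultures. Neither held in every alternative. FN1 was not called without shMETTL14 culture 1 (adjusted p = 0.0924) or 2 (0.0980), with no filter (0.0597) or in the IP libraries alone (log2 change -0.08, 0.225), nor was CD44 (0.169, 0.0567, 0.106 and, at -0.07, 0.236 in the same order). RP1-68D18.4, on the opposite strand, shares 0.835% of the CD44 exonic bases and had 5.03% to 6.73% of the CD44 count. The isoforms of FN1 and CD44 were not analysed here, as the counts are per gene.

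The genes around the set were described from lists of known function, given by counts and medians alone. Most of the adrenergic list rose. Of its 10 genes 8 rose and none fell in the input, with a median log2 change of 0.37. TH, the rate-limiting enzyme of catecholamine synthesis, rose by 1.03 on the log2 scale (edgeR adjusted p = 7.94e-13), CHGA by 0.58 (2.13e-12), TFAP2B by 0.44 (1.24e-08) and GATA3 by 0.28 (2.71e-05). PHOX2A, a homeobox factor of noradrenergic neurons, did not pass (log2 change -0.06, adjusted p = 0.399). None of the 5 tested markers of other cell types passed, PTPRC, CDH5, EPCAM and S100B among them, at a median of -0.27, and their part in the changes above was not tested.

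Among other factors of the mesenchymal state, 11 of 18 tested fell and 1 rose, with a median log2 change of -0.27. AEBP1 fell by 0.68 on the log2 scale (edgeR adjusted p = 2.73e-11), IFI16, an interferon-inducible DNA sensor, by 0.39 (3.55e-09), SOX9, a neural crest factor, by 0.63 (2.36e-05) and ID1, an inhibitor of helix-loop-helix factors, by 0.42 (3.87e-05). MEF2D rose by 0.28 (0.000114). Of the EMT factors and cadherins, 2 of 11 tested rose and 3 fell, PRRX1, SNAI2 and TWIST1 of the set included. The others were ZEB2, a repressor of E-cadherin, which rose by 0.16 (0.0104), and the mesenchymal cadherin CDH11, which fell by 0.37 (0.000487).

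FOSL1 and FOSL2 were set beside the rest of the AP-1 family. Of 11 genes 7 fell and FOSL1 alone rose, at a median log2 change of -0.33. FOS fell by 0.55 on the log2 scale (edgeR adjusted p = 6.46e-10), JUNB by 0.42 (1.47e-08), JUND by 0.31 (9.56e-06) and BATF3 by 0.90 (6.2e-05). JUNB and JUND are partners with which FOS-family proteins form dimers.

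In the Hippo pathway 5 of 16 genes fell and 2 rose, with a median log2 change of -0.10. The MST kinases STK4 and STK3, which act upstream of LATS kinases to restrain YAP and TAZ, fell by 0.60 (edgeR adjusted p = 3.92e-09) and 0.74 (3.74e-07) on the log2 scale. VGLL4, which competes with YAP for TEAD, fell by 0.86 (4.18e-09), AMOT, a binding partner of YAP, by 0.24 (6.97e-05) and TAOK1, a kinase upstream of MST, by 0.21 (0.00164). TEAD1, the DNA-binding partner of YAP and TAZ, rose by 0.26 (1.64e-05) and AMOTL1 by 0.09 (0.0422). Genes that restrain YAP and TAZ and the co-activator WWTR1 were therefore both among those that fell.

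The known YAP and TAZ targets were split, with 5 of 15 lower, 3 higher and a median log2 change of -0.15. ANKRD1 fell by 1.64 on the log2 scale (edgeR adjusted p = 0.00054), CCN2 by 1.07 (0.00182), PTPN14 by 0.74 (0.000154), CCN1 by 0.28 (0.00128) and DLC1 by 0.15 (0.0113). CCN1 and CCN2 are listed in the table under their older symbols CYR61 and CTGF. ANKRD1 and CCN2 were low, at 3.12 and 2.10 and at 3.49 and 3.38 TPM in sh-NC. FJX1 rose by 0.45 (0.000579), AMOTL2 by 0.35 (0.00119) and ARHGEF17 by 0.11 (0.0370).

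The partners of the markers were followed in the same way. Of 11 intermediate filament genes, VIM alone fell, 5 rose and 5 did not pass. NEFM, the medium neurofilament of neurons, rose by 1.24 on the log2 scale (edgeR adjusted p = 4.75e-19), NEFL by 0.48 (3.32e-10), NEFH by 0.32 (4.08e-08), PRPH, a filament of peripheral neurons, by 0.33 (1.04e-07) and INA by 0.34 (3.36e-06). The ratio of VIM to NEFM counts was 2.13 and 2.33 in the sh-NC inputs against 0.757 and 0.768 in the shMETTL14 inputs. The 5 that did not pass were NES, SYNM, LMNA, DES and GFAP.

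Matrix, adhesion and contractile genes went both ways, with 6 of 23 tested higher and 9 lower, at a median of 0.07. DCN and LUM, small leucine-rich proteoglycans, rose by 1.33 (edgeR adjusted p = 4.92e-13) and 0.67 (4.61e-07) on the log2 scale, SPARC by 0.26 (2.24e-06) and TNC by 0.65 (3.93e-05). TGFBI fell by 0.72 (3.85e-10), the fibrillar collagen COL1A1 by 0.67 (3.88e-10), COL5A1 by 0.36 (5.35e-08) and smooth muscle actin ACTA2 by 0.85 (2.65e-09). Of the partners of CD44 and FN1, 6 of 12 tested fell and 1 rose, at a median of -0.12. SPP1, the CD44 ligand osteopontin, fell by 1.86 (1.68e-10), SDC4, a co-receptor for fibronectin, by 1.15 (3.2e-07), and MSN and RDX, which link CD44 to actin, by 0.44 (8.73e-10) and 0.20 (0.000366). HAS2, which makes the CD44 ligand hyaluronan, rose by 0.37 (3.41e-05).

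The m6A signal of the set was then measured as IP over input. In sh-NC, TWIST1, SNAI2 and FOSL2 were enriched in the IP and VIM and FN1 were depleted, while the other 5 did not pass the test. Over all 22953 genes tested, 29.1% were higher and 29.8% lower in the IP than in the input at an adjusted p under 0.05, so 5 of 10 called is not above what the table holds as a whole. TWIST1 had IP over input ratios of 1.70 and 1.68 in the sh-NC cultures, a log2 value of 0.76 (SE 0.0410, edgeR adjusted p = 5.79e-22). SNAI2 had ratios of 1.44 and 1.50 (log2 0.55, adjusted p = 2.87e-10) and FOSL2 of 1.31 and 1.29 (0.38, 2.4e-10). Ratios above 1 in both sh-NC cultures were thus held by the EMT factors SNAI2 and TWIST1 and by FOSL2. YAP1 and PRRX1, which were not called, had them too.

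VIM was the most depleted gene of the set. Its ratios were 0.592 and 0.563 in the sh-NC cultures, a log2 value of -0.79 (SE 0.0338, edgeR adjusted p = 4.69e-26). FN1 had ratios of 0.701 and 0.721 (log2 -0.49, adjusted p = 6.33e-15). The ratios of the 2 genes did not overlap. For CD44 the ratios of 0.933 and 0.956 lay just under 1 (log2 -0.08, adjusted p = 0.0854). With scaling by library size alone, which moves the median of all genes to -0.14 in sh-NC, the log2 value of CD44 became -0.21 and passed (1.12e-05), as it did with at least 10 counts in every library (-0.11, 0.0153).

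WWTR1 had ratios of 0.996 and 1.29 in sh-NC (log2 0.17, edgeR adjusted p = 0.0517), a wide gap between cultures. It passed with RLE factors (0.18, adjusted p = 0.0464). Its log2 value was -0.000817 without sh-NC culture 2 and 0.38, past the threshold, without sh-NC culture 1. YAP1 had ratios of 1.10 and 1.22 (log2 0.21, adjusted p = 0.227) and FOSL1 of 0.995 and 0.966 (-0.04, 0.815). PRRX1 had ratios of 1.31 and 2.77, which rest on 6 to 20 reads per library and gave a log2 value of 0.83 with a 95% interval from -0.33 to 1.99 (adjusted p = 0.219).

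In shMETTL14 the 5 genes called in sh-NC were called in the same direction, and YAP1 was called besides. TWIST1 had ratios of 1.69 and 1.72 (log2 0.77, edgeR adjusted p = 4.68e-22), SNAI2 of 1.33 and 1.45 (0.48, 1.1e-07), FOSL2 of 1.26 and 1.35 (0.38, 2.6e-10) and YAP1 of 1.21 and 1.39 (0.38, 0.0295). VIM, with ratios of 0.607 and 0.601 (log2 -0.73, 1.85e-24), and FN1, with 0.736 and 0.765 (-0.41, 2.77e-12), were again depleted. Thus 4 of the 10 were higher and 2 lower, where 28.9% and 29.1% of all genes were. WWTR1 had ratios of 1.07 and 1.13 (log2 0.13, adjusted p = 0.174), FOSL1 of 0.910 and 0.743 (-0.29, 0.0551), CD44 of 1.06 and 0.952 (0.01, 0.900) and PRRX1 of 0.522 and 1.31 (-0.08, 0.903).

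YAP1 lost its call in shMETTL14 with DESeq2 (adjusted p = 0.0837), with other filters (0.0575 and 0.0504), with scaling by library size (0.148), and without shMETTL14 culture 1 (0.0652) or 2 (0.295). FOSL1 passed with scaling by library size (log2 -0.41, adjusted p = 0.00669), under a minimum of 10 counts per library (-0.32, 0.0318) and without sh-NC culture 1 (-0.29, 0.0468). CD44 changed direction, to a log2 value of -0.11 with scaling by library size (adjusted p = 0.0154) and -0.07 without shMETTL14 culture 1 (0.422), and PRRX1 turned to 0.39 without that culture (0.649).

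**Figure D3:**
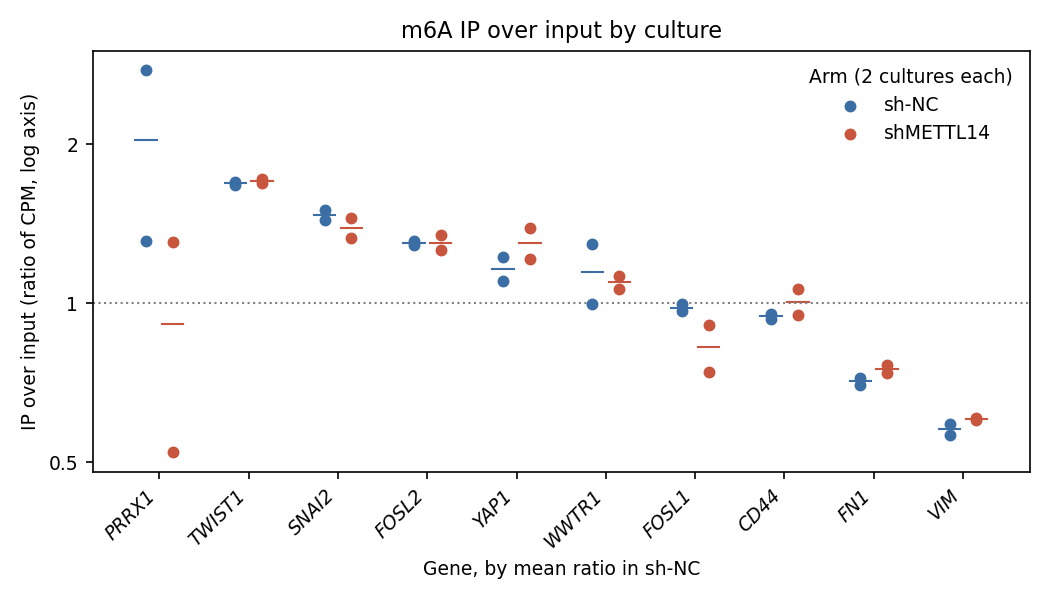
IP over input of each gene (ratio of CPM, log axis) in the 2 sh-NC and the 2 shMETTL14 cultures, with bars for arm means. TWIST1 lies near 1.7 in all 4 cultures and VIM near 0.6, and the PRRX1 points spread the most.

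The difference in IP over input from sh-NC to shMETTL14 answers whether METTL14 knockdown altered the m6A signal of these genes relative to other transcripts. None of the 10 passed, with edgeR adjusted p from 0.854 to 0.999, and none had an unadjusted p under 0.05, which 6.34% of all genes had. By DESeq2 none passed either. Over all 22953 genes, 1 passed at an adjusted p under 0.05 (0.00436%). A p that misses the threshold does not show that the ratios were equal, so intervals are given.

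For the well-measured genes the intervals were narrow. TWIST1, with ratios between 1.68 and 1.72 in all 4 cultures, had a change of 0.02 on the log2 scale with a 95% interval from -0.10 to 0.13. FOSL2 had a change of 0.00257 (-0.13 to 0.13), whose sign differs between settings. VIM was at 0.06 (-0.03 to 0.16), FN1 at 0.08 (-0.04 to 0.20) and CD44 at 0.09 (-0.03 to 0.21). SNAI2, which fell in the input, had a change of -0.08 (-0.27 to 0.12), and WWTR1, which also fell, of -0.04 (-0.27 to 0.19), turning to 0.14 without sh-NC culture 2.

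For the low genes the intervals were wide. FOSL1 had a change of -0.25 (95% interval -0.63 to 0.14) and YAP1 of 0.17 (-0.26 to 0.59). PRRX1 had -0.91 with an interval from -2.40 to 0.59. Without shMETTL14 culture 1 the change was -0.45 for PRRX1, -0.39 for FOSL1 and 0.26 for YAP1, and without shMETTL14 culture 2 it was -1.76, -0.09 and 0.07, the extremes with any culture left out, and none passed. At these counts the interval of PRRX1 holds no change as well as a fall as large as -2.40.

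Genes with the most similar profile were sought for each gene called in the input, by Pearson correlation of log2 CPM over the 8 libraries among the 16441 other genes with a mean of at least 50 counts. The 8 libraries fall into 4 groups of IP and input, so the points share arms, scaling and the gap between IP and input, and the correlations are given as descriptions. VIM was most like POLE (r = 0.9997), SREBF2 and EEF1A1, and FN1 like MRC2 (0.999), SLC35F5 and TKT. TWIST1 was most like ERCC6L (0.9992), MRPS34 and EMILIN1, and SNAI2 like SLC39A10 (0.9976), NOC3L and CACYBP. WWTR1 was most like TRAF3 (0.9937), HECA and MRE11A, FOSL1 like RP11-75I2.3 (0.9871), NDUFB7 and HCN3, and CD44 like IMPACT (0.9643), C12orf66 and ANKS1B. PRRX1, compared with 16442 genes, was most like LINC00641 (0.944), GLIDR and CYLD, the lowest of these correlations.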

How the data were processed

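MeRIP-seq libraries were available from SK-N-BE(2) cells for 2 sh-NC and 2 shMETTL14 cultures, an IP and an input library each. The authors deposited raw read counts per gene with exon coordinates and gene lengths. The submitters' processing notes name Trimmomatic 0.36 and GRCh38. Per the labels, the library kit was strand-specific and tagged molecules with identifiers. The read aligner, the counter, how strand was handled and whether identifiers were used are not given in the sources used here. Symbols of all 10 genes matched RefSeq (GRCh38.p14), which gave the promoter windows.

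Groups came from the sample titles. Tests were run with edgeR 4.0.16 under R 4.3.3 (filterByExpr, TMM, glmQLFit, glmQLFTest, Benjamini-Hochberg over all genes tested, threshold 0.05 on the adjusted p). The input comparison used the 4 inputs. IP over input in each arm and its change used 1 model of 8 libraries with 4 group means. SE is the absolute log2 fold change over the square root of F. Input CPM uses TMM factors of the 4 inputs and IP over input those of 8 libraries. TPM was computed from counts and gene length, and a prior count of 2 was used for log2 CPM in the profile search. The fits were tested on simulated data. Alternatives were RLE factors, library size only, DESeq2 1.42.0, other filters, factors from the 25% of genes least enriched, a replicate block, and leaving out each culture, where the lone culture is assumed to vary like the other groups. The fit of IP libraries alone compares the arms without any input, so RNA level and m6A signal are mixed in it. It was chosen after seeing the data. Figures were drawn with matplotlib 3.10.9.

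The deviations of replicate libraries were above sampling noise (chi-square from 2.43 to 3.99 per gene), and each library was counted as a separate sample. The IP and input of a culture come from the same RNA, which pairs them by protocol, and their deviations had a correlation of 0.004 (sh-NC) and 5.7e-05 (shMETTL14) over 22953 genes. Intervals cover these cultures only. The genes and lists, and the rule for naming, were chosen with earlier results of these data known. Named were the 10 genes, METTL14, from each list up to 4 genes called per direction by smallest p, genes sharing exonic bases, and the 3 most similar profiles. HAND2, TAOK1, DLC1, INA, PHOX2A, the intermediate filament genes that did not pass and the markers of other cell types were named after their values were seen. Some listed genes are not reported here by name.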

Additional observations from a re-analysis of the deposited data

How the results depend on the processing

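In the input, SNAI2, WWTR1 and VIM kept their direction and passed in every alternative run. The number of the 10 genes called higher in the input was 2 as reported, where 11.7% of all genes were. It was 1 with DESeq2 (8.24% of all genes), 0 without a filter (2.89%) and 1 under a minimum of 10 counts per library (13.6%, PRRX1 not tested). In the IP libraries alone it was 0 (10.4%). With a culture left out, PRRX1 and FOSL1 stayed higher, but each lost its call in some runs. The number called lower was 6 as reported, where 12.3% of all genes were, and 3 with no filter, where 2.87% were. With a culture left out, these 6 genes stayed lower, but TWIST1, FN1 and CD44 lost their calls in some runs. The number lower in IP over input in shMETTL14 was 2 as reported (29.1% of all genes) and 4 with library size only (35.2%). That scaling moved the median of all genes to -0.142 (sh-NC) and -0.128 (shMETTL14). For FOSL2 the change of IP over input reversed to -0.000222 with RLE factors, -0.000346 with DESeq2, -0.00892 without a filter, -0.00197 under the minimum of 10, -0.058 scaled on the least enriched genes (TWIST1 -0.0454), and between -0.0454 and 0.0461 with a culture left out. With a culture left out, WWTR1 lay between -0.000817 and 0.383 in sh-NC and between -0.253 and 0.14 for the change, and METTL14 from -0.00261 to 0.188 for the change. IP over input in shMETTL14 reversed for CD44 with library size only (-0.113) and the minimum of 10 (-0.0243), and with a culture left out it ran from -0.0681 to 0.0902 for CD44 and from -0.928 to 0.39 for PRRX1. The cause was not tested. Over all alternatives and genes, 88 values set beside the input comparison kept direction and call, 19 lost the call and 1 gained it. These include the fit of IP libraries alone, which holds no input library. In that fit FOSL2 gained its call, and PRRX1, FOSL1, FN1 and CD44 lost theirs. Of the changes of IP over input, 99 stayed and 10 reversed. The replicate block changed no call of the 10 genes and left 6 lower (12.8% of all genes) and 2 higher (12.3%) in the input. Same-numbered inputs of the arms (r = -0.012) share only a number. PRRX1, FOSL1 and YAP1 rest on the fewest reads of the 10 genes, and all values on 2 cultures per arm; depth was not varied.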
